A study of Homo sapiens with 10 samples.

Results

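Amino acids cross cell membranes through transporters of the solute carrier (SLC) superfamily, and the 7 families SLC1, SLC3, SLC6, SLC7, SLC36, SLC38 and SLC43 hold most of those that carry them. The genes described here are the lines of the count table whose symbol names a numbered member of one of these families. There were 59 such genes among 58735 lines: 7 in SLC1, 2 in SLC3, 19 in SLC6, 13 in SLC7, 4 in SLC36, 11 in SLC38 and 3 in SLC43. They were measured by RNA-seq in 10 libraries of cells labelled HCMECs, brain endothelial cells recorded as a cell line. Both groups carried an siRNA for 48 h and then the ligand Wnt3a for 12 h: in 5 libraries the siRNA was a control (siCtrl), and in the other 5 it was directed at the deubiquitinase gene USP9X (siUSP9X). Nothing in the labels tells whether each library had its own culture, and p-values therefore measure only the library-to-library spread, which can be technical.

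In brain capillaries, where tight junctions close the path between cells, amino acids reach the brain mainly through carriers in the endothelial membranes. Large neutral amino acids use LAT1 (SLC7A5) paired with the heavy chain 4F2hc (SLC3A2), cationic ones use CAT1 (SLC7A1), and sodium-coupled carriers such as SLC38A5 and SLC38A3 move glutamine. Other members sit on lysosomes, where they release amino acids from degraded protein and, in the case of SLC38A9, report arginine to the growth kinase complex mTORC1.

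Each library held between 15.96 and 26.47 times 1e+06 counts. Levels are given as CPM, counts per 1e+06 counts of a library scaled by its TMM normalisation factor. USP9X, the targeted gene, had 415, 283, 329.9, 324 and 351 CPM in the siCtrl libraries and 36.4, 68.7, 27.5, 22.3 and 20.7 CPM in those of siUSP9X, in replicate order. Its groups did not overlap, and it was 9.68-fold lower in siUSP9X cells (edgeR adjusted p = 0.000403). The library siUSP9X replicate 2 stood apart, with ribosomal protein genes making up 2.15% of its counts, where the other 9 had 4.48 to 6.45%. The counts of called genes below are therefore also given without it. Of 12 endothelial markers, 8 averaged under 1 CPM in siCtrl, among them PECAM1, CDH5, VWF, KDR and CLDN5, and ERG had 0 counts. Their summed level ran from 318 to 392 CPM in siCtrl and from 334 to 363 CPM in the siUSP9X libraries other than replicate 2, which had 157 CPM. Without replicate 2, ENG and EGFL7 were lower (log2 fold changes -0.39 and -0.61, edgeR adjusted p = 0.00193 and 0.00788). The other tested endothelial markers, ESAM, PROCR and CDH5, did not fall in that fit. Their log2 fold changes were 0.0040, 0.20 and 0.66 (edgeR adjusted p = 0.980, 0.0686 and 0.222). The epithelial keratin genes KRT8 and KRT18 fell (log2 fold changes -0.45 ± 0.12 and -0.74 ± 0.10, edgeR adjusted p = 0.0400 and 0.00216). The summed level of 5 epithelial markers ran from 3313 to 4173 CPM in siCtrl. In siUSP9X other than replicate 2 it ran from 2539 to 2755 CPM, and replicate 2 had 2029 CPM. KRT8 and KRT18 made up nearly all of this sum, with siCtrl means of 2153 and 1578 CPM. The other 3, EPCAM, CDH1 and KRT19, averaged under 1 CPM in siCtrl. Without replicate 2, EPCAM was lower too, from 0.886 CPM in siCtrl (log2 fold change -1.26, edgeR adjusted p = 0.0340). CDH1 and KRT19 were too low to test. Astrocyte markers summed to at most 0.529 CPM in any library and neuron markers to at most 0.185 CPM. Pericyte and smooth muscle, fibroblast, and leukocyte and microglia markers summed to at most 8.04, 2.77 and 1.47 CPM. The part of these cell type markers in the results was not tested. A lower RNA level per cell and fewer cells with the RNA cannot be told apart in these bulk libraries.

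Of the 59 genes, 25 passed the filter on low counts, 22 had a few counts and 12 had 0 counts in all 10 libraries. Among the 25, 4 were higher in siUSP9X cells (SLC38A7, SLC38A9, SLC38A6 and SLC7A1) and 1 was lower (SLC6A6) at an adjusted p under 0.05, with p-values adjusted over all 13934 tested genes (edgeR quasi-likelihood test). Over all tested genes 4.09% were called higher, 3.22% lower and 7.31% in either direction. Without siUSP9X replicate 2, 8 of the 25 were higher and 2 lower, where 11.9% of all genes were higher, 11.5% lower and 23.4% either. All siUSP9X libraries lay above all siCtrl libraries for 3 of the 25 (7.79% of all tested genes) and below them for 1 (6.88%), 4 in either direction where all tested genes had 14.7%, a similar share. Without siUSP9X replicate 2 these were 4 above (10.4%) and 2 below (9.58%), 6 in either direction against 20% of all tested genes, with SLC6A9 added above and SLC7A2 below. The log2 fold changes below are of siUSP9X over siCtrl, given ± SE. Their median over the 25 was 0.35 against 0.026 over all tested genes, and 0.21 against 0.007 without siUSP9X replicate 2.

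The called genes lay in 3 families. SLC38 had 3 of 6 measured members higher, SLC7 1 of 6 higher and SLC6 1 of 4 lower, while none of the 4 measured SLC1, 1 SLC3, 2 SLC36 and 2 SLC43 members passed the threshold with edgeR. Of these 9, SLC36A1 alone had an unadjusted p under 0.05. SLC36A1 also alone passed with DESeq2, and 0 passed with limma-voom. Without siUSP9X replicate 2 the calls in SLC38 stayed 3 higher, those in SLC7 became 2 higher and 1 lower, those in SLC6 2 higher and 1 lower, and SLC36 had 1 higher.

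**Figure D1:**
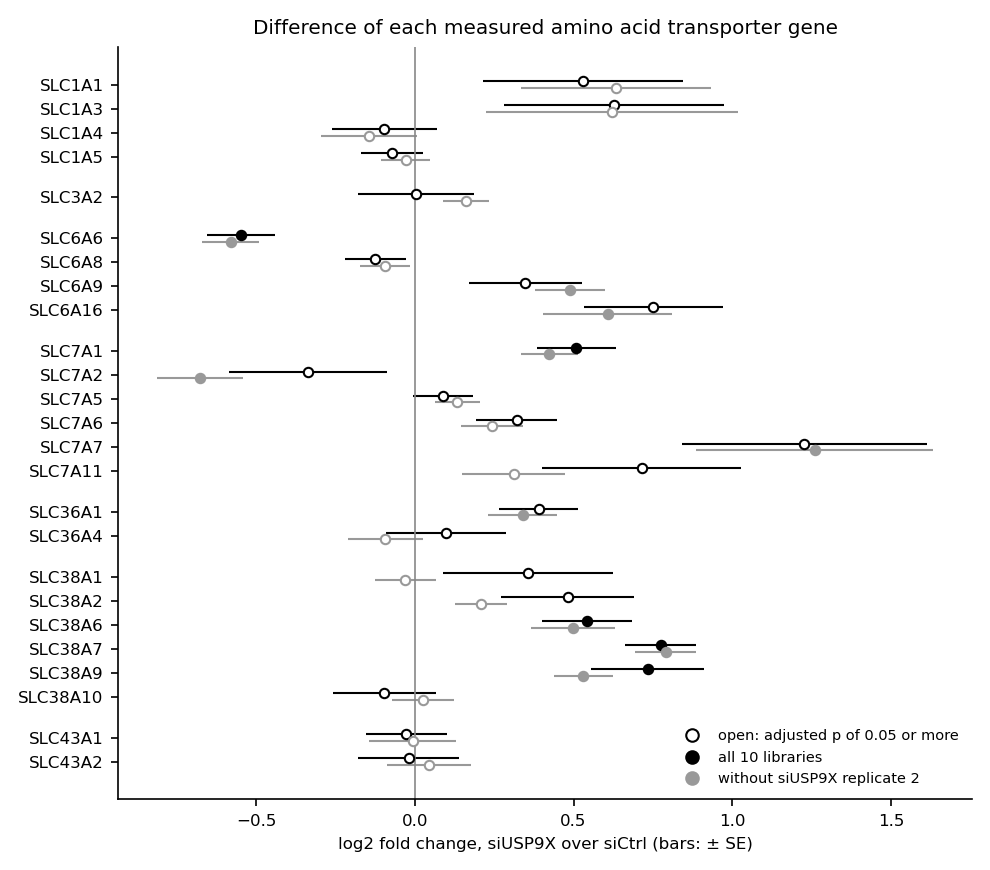
Log2 fold change of the 25 measured amino acid transporter genes (rows, grouped by family) between siUSP9X and siCtrl cells, with SE bars, for all 10 libraries (black) and without siUSP9X replicate 2 (grey). Filled points passed the adjusted p threshold of 0.05: SLC38A7, SLC38A9, SLC38A6, SLC7A1 and SLC6A6 are filled in both fits.

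Levels between genes were compared per length, as CPM per kilobase of annotated exon in siCtrl cells. SLC38A2, a sodium-coupled carrier of small neutral amino acids, was highest at 135 ± 12.5 (SD, n = 5), followed by SLC7A5 at 99.5 ± 7.37. SLC38A1, SLC3A2 and SLC1A5 came next, at 46.0 ± 6.43, 38.9 ± 2.59 and 38.3 ± 3.41, with libraries that overlapped among the 3 genes. The order then ran through SLC6A8 (18.7), SLC7A1 (17.4), whose libraries overlapped, to SLC6A6 (11.7). In SLC36 and SLC43 the highest members were SLC36A4 (3.40) and SLC43A2 (1.85). Carriers of the blood-brain barrier were present at very different levels, from LAT1 near the top to SLC38A5 under the filter. As a share of summed CPM in siCtrl, the SLC38 family held 53.4% and the SLC7 family 24.2% of all 59 genes.

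**Figure D2:**
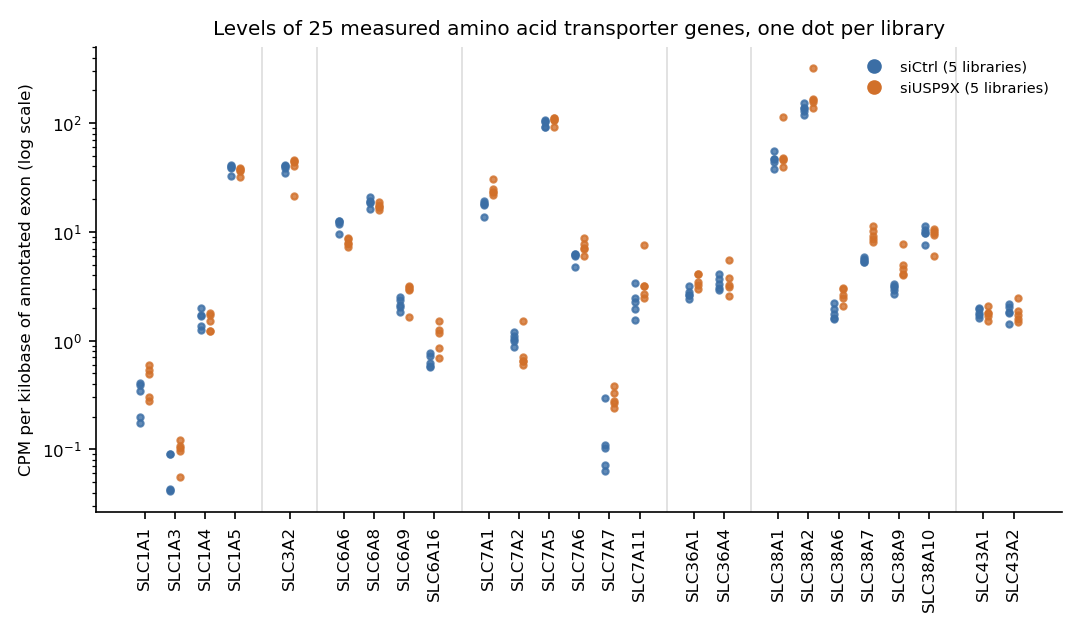
Level of each measured gene in CPM per kilobase of annotated exon (log axis), with 1 dot per library, siCtrl in blue and siUSP9X in orange, families parted by lines. SLC38A2 and SLC7A5 lead, and the lone orange dots above SLC38A1, SLC38A2 and SLC7A11 and below SLC3A2 are siUSP9X replicate 2.

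The lysosomal carriers held the gene with the smallest p among the members. SLC38A7 encodes SNAT7, which exports glutamine and asparagine from lysosomes (ENSG00000103042.8, chr16:58665109-58685104, minus strand, GRCh38). Its values were 36.9, 39.3, 37.2, 41.0 and 38.6 CPM in siCtrl replicates 1 to 5 and 56.2, 63.3, 60.1, 71.6 and 79.4 CPM in siUSP9X replicates 1 to 5. Every siUSP9X library lay above every siCtrl library, and siUSP9X replicate 2 lay within the range of the other 4. The group means were 38.6 ± 1.67 CPM in siCtrl and 66.1 ± 9.35 CPM in siUSP9X (SD, n = 5 each), a 1.71-fold higher level (log2 fold change 0.78 ± 0.11, edgeR adjusted p = 0.00260). The call held in each of the 10 fits that left out 1 library, and its adjusted p over all alternatives ran from 2.90e-08 to 0.0490.

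SLC38A9, the arginine sensor of the lysosomal surface (ENSG00000177058.11, chr5:55625845-55773194, minus strand, GRCh38), was also higher. It had 26.0, 27.3, 28.3, 23.7 and 29.4 CPM in the siCtrl libraries, and 36.4, 68.5, 39.9, 35.4 and 43.7 CPM in those of siUSP9X. The groups did not overlap, and siUSP9X replicate 2 lay far above the other 4 siUSP9X libraries. The means were 26.9 ± 2.21 CPM in siCtrl and 44.7 ± 13.6 CPM in siUSP9X (SD, n = 5 each, log2 fold change 0.73 ± 0.18, edgeR adjusted p = 0.0311). Without siUSP9X replicate 2 the log2 fold change was 0.53 with an adjusted p of 0.000505. The call held in 3 of the 10 fits without 1 library, those without siUSP9X replicates 1, 2 or 4.

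SLC36A1, a proton-coupled carrier of small amino acids found on lysosomes and at the cell surface, had 22.2, 16.8, 18.4, 18.2 and 19.4 CPM in siCtrl and 24.0, 28.4, 20.7, 22.8 and 28.6 CPM in siUSP9X. The groups overlapped through siCtrl replicate 1 and siUSP9X replicate 3. Its log2 fold change, 0.39 ± 0.13, did not pass the threshold (edgeR adjusted p = 0.0786), but did without siUSP9X replicate 2 (0.0326). SLC36A4, a carrier of proline and tryptophan, had a log2 fold change of 0.098 ± 0.19, and -0.093 without siUSP9X replicate 2. SLC7A14, a lysosomal member of its family, had 2 counts in siCtrl and 4 in siUSP9X over 5 libraries each and was too low to test.

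Among sodium-coupled SLC38 carriers outside these, SLC38A6 rose. This little-characterised member (ENSG00000139974.15, chr14:60981114-61083733, plus strand, GRCh38) had 8.98, 11.4, 8.16, 8.25 and 9.95 CPM in the siCtrl libraries, and 10.7, 15.3, 13.5, 12.8 and 15.7 CPM in those of siUSP9X. Of the siUSP9X libraries, replicate 1 alone lay below the highest siCtrl library. The log2 fold change was 0.54 ± 0.14 (edgeR adjusted p = 0.0424, 0.0106 to 0.131 over the alternatives), and the call held without siCtrl replicate 2, siUSP9X replicate 1 or siUSP9X replicate 2 but not when any 1 of the remaining 7 libraries was dropped. SLC38A6 shares 245 exon bases with TRMT5 on the opposite strand, and although the library kit marks strand, the sources used here do not say whether the counting used it. TRMT5 itself had a log2 fold change of 0.19 ± 0.17.

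SLC38A1 and SLC38A2 are neighbours on chromosome 12 that take up glutamine and other small neutral amino acids. The size of their fold changes depended on 1 library. SLC38A2 had 1009, 789, 907, 846 and 918 CPM in siCtrl and 1024, 2113, 1078, 916 and 1108 CPM in siUSP9X. SLC38A1 had 555, 377, 469, 437 and 465 CPM in siCtrl and 479.9, 1144, 469.9, 395 and 458 CPM in siUSP9X. In both genes siUSP9X replicate 2 stood far above every other library. For SLC38A1 the remaining siUSP9X libraries lay within the siCtrl range. For SLC38A2 the siUSP9X library at 916 CPM lay within it, and those at 1024, 1078 and 1108 CPM lay above every siCtrl library. The log2 fold change of SLC38A2 was 0.48 ± 0.21 with all libraries (edgeR adjusted p = 0.159) and 0.21 without siUSP9X replicate 2 (adjusted p = 0.0737). That of SLC38A1 was 0.36 ± 0.27 (edgeR adjusted p = 0.386) and -0.03. SLC38A10 lay low in the same library, at 46.1 CPM where the other siUSP9X libraries had 71.3 to 81.2 CPM, with a log2 fold change of -0.096 ± 0.16.

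The glutamine carriers SLC38A5 and SLC38A3, both described at the blood-brain barrier, were near the floor. The counts of SLC38A5 were 7, 3, 6, 4 and 17 in the siCtrl libraries, in replicate order, and 7, 1, 7, 4 and 2 in the siUSP9X libraries. Pooled over a group this is 0.367 CPM in siCtrl (exact 95% Poisson interval 0.258 to 0.506) and 0.245 CPM in siUSP9X (0.152 to 0.375), intervals that overlap and cover counting error only. The mean of siCtrl rests on replicate 5, which holds 17 of 37 counts. An exact two-sided permutation test over the 10 libraries gave p = 0.476 for SLC38A5 CPM (0.651 after adjustment over the 2 such tests made), where the smallest p that 252 splits allow is 0.00794. SLC38A3 had 1 count in each group.

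Of the cationic amino acid carriers, SLC7A1 rose. It encodes CAT1, the main entry route for arginine and lysine in many cells (ENSG00000139514.12, chr13:29509410-29595688, minus strand, GRCh38). Its values were 142, 104, 134, 139.9 and 147 CPM in siCtrl and 168, 234, 177, 179 and 192 CPM in siUSP9X. The groups did not overlap, with siUSP9X replicate 2 highest and siCtrl replicate 2 lowest. The means were 133 ± 16.8 CPM in siCtrl and 189.9 ± 26.0 CPM in siUSP9X (SD, n = 5 each, log2 fold change 0.51 ± 0.13, edgeR adjusted p = 0.0340), and without siUSP9X replicate 2 the log2 fold change was 0.42 (adjusted p = 0.00243). The call held in 3 of 10 fits without 1 library, those without siUSP9X replicates 1, 2 or 4, and the adjusted p over all alternatives ran up to 0.193.

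SLC7A2, the related carrier CAT2, lay lower in 4 of 5 siUSP9X libraries. It had 9.50, 6.85, 7.88, 8.25 and 8.74 CPM in siCtrl and 5.58, 11.9, 5.15, 5.17 and 4.70 CPM in siUSP9X. The 4 libraries other than siUSP9X replicate 2 all lay below the siCtrl range, and replicate 2 lay above it. With all libraries the log2 fold change was -0.34 ± 0.25 (edgeR adjusted p = 0.375), and without siUSP9X replicate 2 it was -0.68 (adjusted p = 0.00150). The y+L exchangers, which trade cationic for neutral amino acids and need the 4F2hc chain, did not pass the threshold with edgeR and all libraries. SLC7A6 had a log2 fold change of 0.32 ± 0.13 (edgeR adjusted p = 0.132), and 3371 of its exon bases overlap SLC7A6OS on the opposite strand. SLC7A7, with means of 0.661 ± 0.491 CPM in siCtrl and 1.54 ± 0.298 CPM in siUSP9X (SD, n = 5 each), had a log2 fold change of 1.23 ± 0.39 (edgeR adjusted p = 0.0753, and 0.0211 without siUSP9X replicate 2), and siCtrl replicate 3 at 1.52 CPM lay within the siUSP9X range. DESeq2 and limma-voom called SLC7A7 higher with all libraries.

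**Figure D3:**
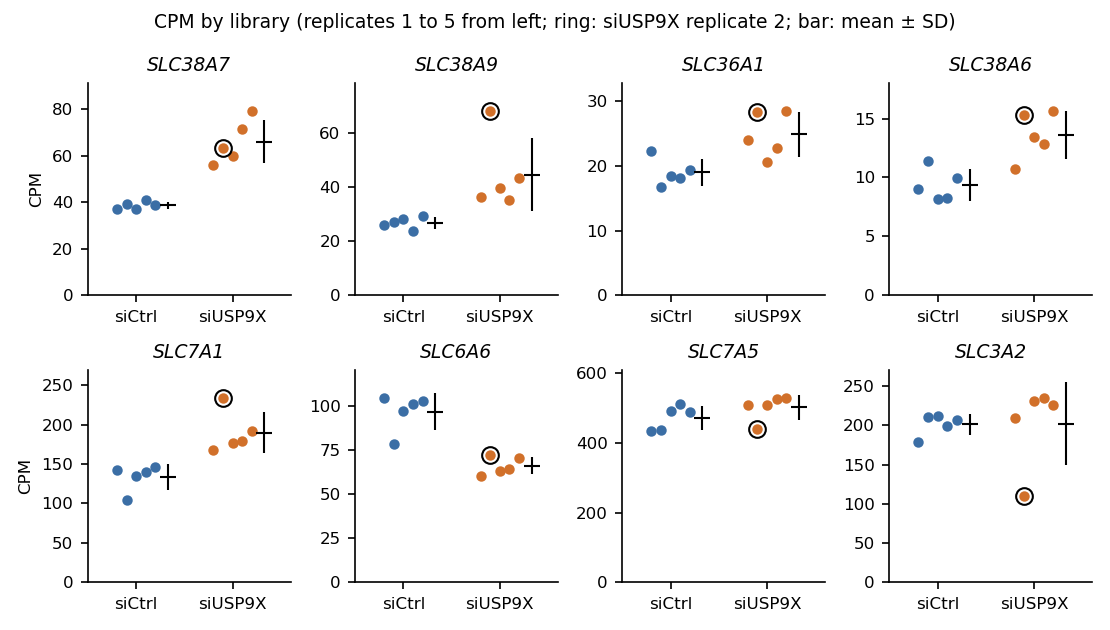
CPM in each library for 8 members (y axes start at 0), with replicates 1 to 5 from left to right in each group, the mean and SD as a bar, and siUSP9X replicate 2 ringed. SLC38A7, SLC38A9 and SLC7A1 lie wholly above their siCtrl values and SLC6A6 wholly below, while the ringed library alone is low for SLC3A2.

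Neither chain of the large neutral amino acid exchanger of the barrier passed the threshold, with or without siUSP9X replicate 2. SLC7A5 (ENSG00000103257.8, chr16:87830023-87869488, minus strand, GRCh38) had 434, 437, 492, 511 and 488 CPM in siCtrl and 508, 439, 508, 526 and 529 CPM in siUSP9X, overlapping groups with a log2 fold change of 0.088 ± 0.094 (edgeR adjusted p = 0.541). Leaving siUSP9X replicate 2 out, its siUSP9X mean was 518 ± 11.7 CPM (SD, n = 4) against 472 ± 35.0 CPM (SD, n = 5) in siCtrl, a log2 fold change of 0.13 ± 0.07 (edgeR adjusted p = 0.179). SLC3A2 (ENSG00000168003.16, chr11:62856102-62888875, plus strand, GRCh38), which encodes the heavy chain that brings LAT1 and several other SLC7 carriers to the membrane, had 179, 211, 212, 199 and 207 CPM in siCtrl and 209.6, 109.8, 231, 235 and 226 CPM in siUSP9X. Over all 10 libraries its log2 fold change was 0.0043 ± 0.18. Leaving siUSP9X replicate 2 out gave 0.16 ± 0.072, and the siUSP9X mean was then 225 ± 11.1 CPM (SD, n = 4) against 202 ± 13.4 CPM (SD, n = 5) in siCtrl (edgeR adjusted p = 0.112). In replicate 2 it stood at 109.8 CPM against 209.6 to 235 CPM in the other 4.

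The ratio of SLC7A5 to SLC3A2 counts, light chain over heavy chain, was 2.42, 2.07, 2.32, 2.56 and 2.36 in siCtrl and 2.42, 3.998, 2.20, 2.24 and 2.35 in siUSP9X, in replicate order. Of the siUSP9X libraries, replicate 2 alone lay outside the siCtrl range of 2.07 to 2.56. An exact two-sided permutation test of the log2 ratio over libraries gave p = 0.651, and 0.651 after adjustment over the 2 such tests. SLC7A5P1, a copy of SLC7A5 whose reads could be split with it, held 221 counts over 10 libraries against 90792 for SLC7A5. SLC7A8, the other light chain for large neutral amino acids, had 1 count in siCtrl and 0 in siUSP9X. The exact 95% Poisson interval of 0 counts over the siUSP9X group reaches 0.0431 CPM. The heavy chain SLC3A1 had 5 counts and 0 counts.

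The uniporters of large neutral amino acids had small differences. SLC43A1 had a log2 fold change of -0.027 ± 0.13 and SLC43A2 of -0.019 ± 0.16, neither past the threshold (edgeR adjusted p = 0.898 and 0.944). SLC43A3, which belongs to the family by sequence and is known as a nucleobase carrier, had 0 and 2 counts. Among the neutral amino acid exchangers of SLC1, SLC1A5 (ASCT2, a glutamine carrier) had means of 127 ± 11.4 CPM in siCtrl and 121 ± 8.46 CPM in siUSP9X (SD, n = 5 each) with a log2 fold change of -0.072 ± 0.099. SLC1A4 (ASCT1, a serine and alanine carrier) had means of 11.1 ± 2.03 CPM in siCtrl and 10.4 ± 1.86 CPM in siUSP9X (SD, n = 5 each) with a log2 fold change of -0.096 ± 0.16. Neither passed the threshold (edgeR adjusted p = 0.638 and 0.715).

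Glutamate and cystine carriers were low or variable. SLC1A1 (EAAT3) had 1.57, 0.701, 0.788, 1.63 and 1.38 CPM in siCtrl and 2.41, 1.22, 1.11, 1.97 and 2.15 CPM in siUSP9X, overlapping groups with a log2 fold change of 0.53 ± 0.31. SLC1A3 (EAAT1) had 0.385 ± 0.164 CPM in siCtrl and 0.607 ± 0.153 CPM in siUSP9X (SD, n = 5 each) and a log2 fold change of 0.63 ± 0.35, and SLC1A2 (EAAT2) had 1 count in siCtrl and 4 in siUSP9X. Neither SLC1A1 nor SLC1A3 passed the threshold (edgeR adjusted p = 0.279 and 0.251). SLC7A11, the cystine-glutamate antiporter xCT that supplies cysteine for glutathione, had 32.5, 14.9, 23.6, 19.0 and 21.7 CPM in siCtrl and 26.1, 72.4, 30.4, 23.7 and 30.5 CPM in siUSP9X. The groups overlapped, and siUSP9X replicate 2 was the highest library. Its log2 fold change was 0.71 ± 0.31 with all libraries (edgeR adjusted p = 0.164) and 0.31 without that library (0.180). It shares 865 exon bases with SLC7A11-AS1 on the opposite strand, which held 13 counts over 10 libraries.

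In SLC6, a family of sodium- and chloride-coupled carriers that includes the neurotransmitter transporters, the taurine carrier SLC6A6 fell. SLC6A6 (ENSG00000131389.17, chr3:14402576-14489349, plus strand, GRCh38) had 105, 78.7, 97.0, 101 and 103 CPM in siCtrl and 60.2, 72.0, 63.4, 64.6 and 70.6 CPM in siUSP9X. All siUSP9X libraries lay below all siCtrl libraries, with siUSP9X replicate 2 the nearest to them. The means were 96.8 ± 10.5 CPM in siCtrl and 66.1 ± 4.96 CPM in siUSP9X (SD, n = 5 each), a 1.46-fold lower level (log2 fold change -0.55 ± 0.11, edgeR adjusted p = 0.0130). The call held in each of the 10 fits without 1 library, and the adjusted p over all alternatives ran from 3.53e-05 to 0.130.

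The other measured SLC6 members did not pass the threshold with edgeR and all libraries. The creatine carrier SLC6A8, with means of 103 ± 8.84 CPM in siCtrl and 94.3 ± 5.96 CPM in siUSP9X (SD, n = 5 each), had a log2 fold change of -0.13 ± 0.096. The glycine carrier SLC6A9 had 9.45, 10.4, 10.9, 12.2 and 13.0 CPM in siCtrl and 15.5, 8.46, 15.9, 16.4 and 15.0 CPM in siUSP9X. Its siUSP9X replicate 2 was the lowest of all 10 libraries and the other 4 siUSP9X libraries were the highest. The log2 fold change moved from 0.35 ± 0.18 (edgeR adjusted p = 0.221) to 0.49 without it (0.00365). SLC6A9 shares 404 exon bases with CCDC24 on the opposite strand, which had 6.87 CPM in siCtrl and 5.12 CPM in siUSP9X. SLC6A16, a member with no settled substrate, had 2.35 ± 0.306 CPM in siCtrl and 3.95 ± 1.18 CPM in siUSP9X (SD, n = 5 each) and a log2 fold change of 0.75 ± 0.22 (edgeR adjusted p = 0.0598, and 0.0378 without siUSP9X replicate 2), and DESeq2 called it higher with all libraries. The proline carrier SLC6A20 had 14 counts in siCtrl and 8 in siUSP9X, and the serotonin carrier SLC6A4 had 8 and 3.

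The 34 members under the filter were led by SLC38A5. The others with counts had at most 14 in a group: SLC1A2, SLC1A7, SLC3A1, SLC6A2, SLC6A4, SLC6A7, SLC6A12, SLC6A13, SLC6A17, SLC6A18, SLC6A19, SLC6A20, SLC7A3, SLC7A4, SLC7A8, SLC7A10, SLC7A14, SLC38A3, SLC38A4, SLC38A8 and SLC43A3. For a count of 0 over a group, the exact 95% Poisson interval reaches 0.0366 CPM in siCtrl and 0.0431 CPM in siUSP9X. The members with 0 counts included SLC1A6, SLC6A3, SLC6A5, SLC6A11, SLC6A14, SLC6A15, SLC7A9, SLC7A13, SLC36A2, SLC36A3 and SLC38A11. Among these are carriers for dopamine (SLC6A3) and for glycine in neurons (SLC6A5) and the renal and intestinal carrier SLC7A9.

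Library siUSP9X replicate 2 departed from the others in both directions among these genes. Of the 25 measured, that library was the highest of all 10 for 9 and the lowest for 5. Summed over the 59 genes it had 4782 CPM, where the other siUSP9X libraries had 2943 to 3226 CPM and siCtrl 2543 to 2946 CPM. SLC38A2 alone took 44.2% of the members' counts in it and 30.0 to 34.5% in the other 9. Without it the SLC38 family summed to 1678 ± 117 CPM (SD, n = 4) in siUSP9X against 1505 ± 138 CPM (SD, n = 5) in siCtrl, ranges that overlapped.

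**Figure D4:**
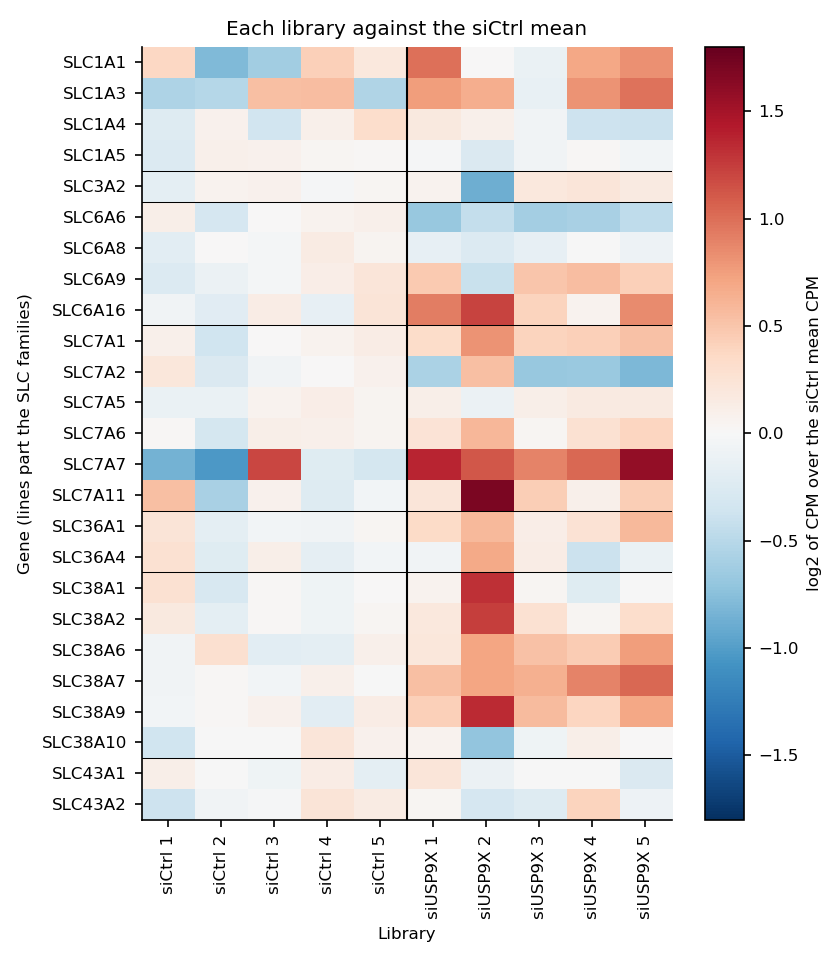
Each library (columns) against the siCtrl mean for the 25 measured members (rows), as log2 of the CPM ratio, red above and blue below. The column of siUSP9X replicate 2 differs from its 4 neighbours, deep red for SLC7A11, SLC38A1, SLC38A2 and SLC38A9 and blue for SLC3A2, SLC38A10 and SLC6A9, while SLC38A7 is red and SLC6A6 blue in all 5 siUSP9X columns.

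Sequence near the start sites was searched for the element through which ATF4 and C/EBP factors raise transcription when amino acids run short. The letters searched were TGATGNAAN, on both strands, in RefSeq promoters of 250 bases before to 50 after each listed start (GRCh38.p14). The element was found in 6 of 22 measured members with a promoter in the table and in 2.60% of the 9915 tested genes that have one (3.61% of all 35116 promoters in the table). A match describes these letters and is no evidence of binding. The 6 are shown because they hold the heavy chain and several of the highest carriers, 5′ to 3′ along the gene's strand, with the match in capitals.
SLC7A1 (chr13:29595663-29595691, minus strand): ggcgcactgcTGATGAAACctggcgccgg
SLC38A1 (chr12:46266502-46266530, minus strand): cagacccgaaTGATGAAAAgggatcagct
SLC3A2 (chr11:62881720-62881748, plus strand): taatgtgcaggactcCTTACATCAgctcc
SLC1A5 (chr19:46784893-46784921, minus strand): aggaagtggcTGATGCAAGctgtccaggg
SLC1A4 (chr2:64989381-64989409, plus strand): gcggctcccgTTTGCATCAtctccagccg
SLC1A3 (chr5:36596358-36596386, plus strand): aggaaatgacTGATGCAAAgcagggttaa
The match starts at base 8 from the start site in SLC7A1, -4 in SLC38A1, 37 in SLC3A2, -97 in SLC1A5, -8 in SLC1A4 and -220 in SLC1A3, counted at the match's left end with the first transcribed base as 1, and lies on the opposite strand in SLC3A2 and SLC1A4. Of these 6 genes SLC7A1 was higher in siUSP9X cells and 5 did not pass the threshold. SLC38A7, SLC38A9 and SLC38A6 held no match in this window.

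The words AATCACA and, shifted by a base, ATCACAA, and the words CAACTCT and, shifted likewise, AACTCTA, had been picked earlier from the fold changes of this series as common in the 3′ UTRs of lower genes, so they are no independent evidence. At least 1 of them was present in 49.4% of lower, 25.8% of higher and 28.1% of all tested genes with an annotated 3′ UTR. Among the 25 measured members 12 held one: SLC1A3, SLC1A4, SLC6A6, SLC6A8, SLC6A16, SLC7A2, SLC7A6, SLC7A11, SLC36A1, SLC36A4, SLC38A1 and SLC43A2. The lower gene SLC6A6 held 1 site (GENCODE 29, GRCh38, chr3:14487309-14487337, plus strand), shown with the word in capitals.
SLC6A6: aagtcgttcctCAACTCTccccaaggcac
None of the 4 higher members, SLC38A7, SLC38A9, SLC38A6 and SLC7A1, held a word in the 3′ UTR of the transcript used. These 3′ UTRs have 2276, 649, 201 and 5070 bases, in that order, against 4340 bases in SLC6A6. A longer 3′ UTR has more places for a word, and length was not accounted for in the shares above. SLC7A6 and SLC7A11, which hold all 4 words, had log2 fold changes above 0. The part of the words in these results was not tested.

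Genes that act with these transporters were described from 5 lists. Of 19 measured amino acid carriers outside the 7 families, 2 rose, 2 fell and 15 passed in neither direction, with a median log2 fold change of 0.015 against 0.026 over all tested genes. Without siUSP9X replicate 2 this median was 0.18 against 0.007, and 4 rose and 5 fell. Of all tested genes 4.09% were higher and 3.22% lower with all libraries, and 11.9% and 11.5% with siUSP9X replicate 2 left out. These shares are the background for this list and each list below. For counts at an unadjusted p, the share of all tested genes is not given here. SLC17A5, the lysosomal sialic acid carrier sialin, rose, with means of 23.8 ± 3.35 CPM in siCtrl and 36.8 ± 2.78 CPM in siUSP9X (SD, n = 5 each, log2 fold change 0.63 ± 0.12, edgeR adjusted p = 0.0111). Of the mitochondrial aspartate-glutamate exchangers, SLC25A12 fell (log2 fold change -0.71 ± 0.13) and SLC25A13 rose (0.51 ± 0.11). MFSD12, a lysosomal cysteine importer, fell (log2 fold change -0.43 ± 0.12), and its call held in 2 of 10 fits without 1 library against 10 for SLC17A5, 10 for SLC25A12 and 5 for SLC25A13.

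Of 37 measured genes of amino acid sensing and mTORC1, 4 rose, 0 fell and 33 did not pass in edgeR, with a median log2 fold change of -0.096. At an unadjusted p under 0.05, 9 were higher and 5 lower, and DESeq2 called 2 lower and limma-voom 0. RRAGC, a Rag GTPase that recruits mTORC1 to lysosomes, had means of 18.0 ± 2.24 CPM in siCtrl and 27.7 ± 4.09 CPM in siUSP9X (SD, n = 5 each, log2 fold change 0.62 ± 0.13, edgeR adjusted p = 0.0185). The other Rag genes, named after their values were seen, did not pass in edgeR. Their log2 fold changes were 0.21 ± 0.14 for RRAGA, -0.52 ± 0.25 for RRAGB and -0.25 ± 0.18 for RRAGD. Without siUSP9X replicate 2, RRAGA was higher (0.32, edgeR adjusted p = 0.00679) and RRAGD lower (-0.46, 0.00450). LAMTOR3, of the scaffold that anchors the Rag GTPases, rose by 0.44 ± 0.094, the leucine-pathway gene SESN1 by 0.73 ± 0.16 and the mTORC1 inhibitor TSC1 by 0.78 ± 0.20 on the log2 scale. The other subunits of the LAMTOR3 scaffold, named after their values were seen, had log2 fold changes below 0, none past the threshold in edgeR: -0.73 ± 0.23 for LAMTOR1, -0.64 ± 0.33 for LAMTOR2, -0.49 ± 0.47 for LAMTOR4 and -0.29 ± 0.23 for LAMTOR5. With siUSP9X replicate 2 left out, LAMTOR1 (-0.54, edgeR adjusted p = 0.000468) and LAMTOR2 (-0.39, 0.00761) were lower. In that setting the list had 9 higher and 6 lower genes and a median of -0.10. Leaving out any 1 of the other 9 libraries gave 0 to 4 higher.

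Of 27 measured regulators and targets of the amino acid response through GCN2 and ATF4, 2 rose, 1 fell and 24 did not pass, with a median of 0.076. CEBPG, a partner of ATF4, rose by 0.39 ± 0.10 and the tRNA exporter XPOT by 0.62 ± 0.17, on the log2 scale, while CTH, an enzyme of cysteine synthesis, fell (log2 fold change -0.56 ± 0.12). The serine enzyme SHMT2 had a log2 fold change of -0.66 ± 0.19 (edgeR adjusted p = 0.0620). With siUSP9X replicate 2 left out, 7 were higher and 4 lower, with a median of 0.056. Without siUSP9X replicate 4, 2 were higher, and without any 1 of the other 8 libraries 0 were higher and 0 to 1 lower. Of 20 cytosolic aminoacyl-tRNA synthetases, 0 rose, 1 fell (VARS, log2 fold change -0.48 ± 0.10) and 19 did not pass in edgeR, with a median of 0.104. DESeq2 and limma-voom also called 0 higher, and 3 were higher and 2 lower at an unadjusted p under 0.05. Without siUSP9X replicate 2, 2 were higher and 4 lower, with a median of 0.070. LARS, KARS and CARS, next by p, had log2 fold changes of 0.63 ± 0.23, -0.24 ± 0.089 and 0.25 ± 0.097.

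Of 16 measured regulators of transporter trafficking and turnover, 3 rose, 0 fell and 13 did not pass in edgeR, with a median of 0.092. At an unadjusted p under 0.05, 7 were higher and 3 lower, and DESeq2 called 1 lower and limma-voom 0. SGK1, a kinase that raises the surface amount of several transporters, had 91.1, 74.8, 79.5, 73.6 and 76.8 CPM in siCtrl and 136, 178, 152, 139 and 159 CPM in siUSP9X. The groups did not overlap (log2 fold change 0.95 ± 0.11, edgeR adjusted p = 0.000566). The call held in each of the 10 fits without 1 library. The related kinase genes SGK2 and SGK3, named after their values were seen, had log2 fold changes below 0. These were -1.06 ± 0.33 for SGK2, from a low 1.58 CPM in siCtrl, and -0.57 ± 0.21 for SGK3, neither past the threshold in edgeR. Without siUSP9X replicate 2 both were lower (-1.24 and -0.68, edgeR adjusted p = 0.0118 and 0.0128). The arrestin-like genes ARRDC4 and TXNIP rose by 0.71 ± 0.16 and 0.80 ± 0.22 on the log2 scale from low levels of 2.80 and 3.65 CPM. ARRDC3 had a log2 fold change of 1.16 ± 0.33 (edgeR adjusted p = 0.0554) and 0.63 without siUSP9X replicate 2 (adjusted p = 2.08e-05). Without that library 7 of the list were higher and 3 lower, with a median of -0.053, and over all fits without 1 library the higher ones numbered 1 to 7.

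**Figure D5:**
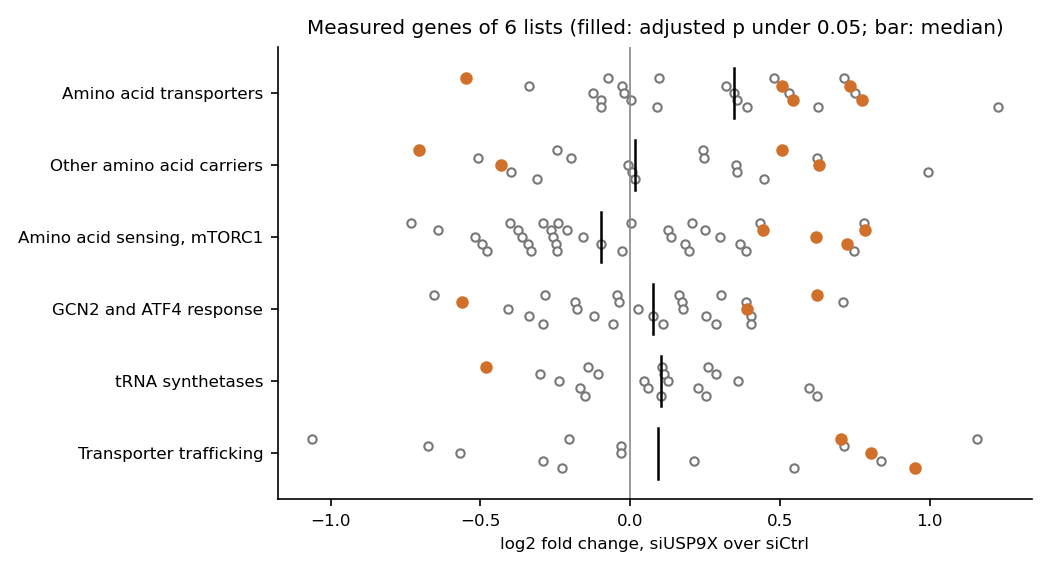
Log2 fold change of each measured gene (points) in the transporter families and 5 related lists (rows), with the list's median as a bar and filled points where the adjusted p is under 0.05. The transporters' median is 0.35 and the other medians lie between -0.096 and 0.104, all with siUSP9X replicate 2 included. Without it the transporters' median is 0.21 and that of the other carriers 0.18.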

How the data were processed

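RNA-seq counts were deposited as 1 table of whole numbers per gene symbol, with 1 column per library. Poly(A) libraries came from a stranded Illumina kit, per the labels' protocols. Genome build hg38 and the tools RSEM and DESeq2 appear, without version or role, per the submitters' processing notes. The sources used here do not say whether the counts are rounded RSEM estimates, which would split reads between similar genes.

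The test was edgeR's quasi-likelihood test (edgeR 4.0.16, R 4.3.3; robust fit, TMM factors, filterByExpr with a minimum count of 10, group as the only term, two-sided). P-values were adjusted by the Benjamini-Hochberg method over all 13934 tested lines, with a threshold of 0.05. Alternatives were other scaling factors, filters and thresholds, DESeq2 1.42.0, limma-voom 3.58.1, a replicate block and leaving out each library. Library totals were 15.96 to 26.47 times 1e+06 counts, and within a group each pair differed beyond sampling noise (lowest chi-square per degree of freedom 5.25). Coordinates, exon lengths and 3′ UTRs come from GENCODE 29 (GRCh38), where 96.91% of 58735 lines and all 59 transporters matched 1 gene. The script was tested on simulated data. A few items are not reported here. The transporters, lists and markers were chosen with earlier results of these data known. Named were the barrier transporters, each transporter past the threshold, the highest of each family, the fold change of each other tested one, and up to 4 genes by p from each related list. Further LAMTOR, Rag and SGK genes were added after their values were seen.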

Additional observations from a re-analysis of the deposited data

Results flagged for a closer look

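In 50 groups of 5 libraries (25 measured transporters in siCtrl and in siUSP9X), 13 had a library whose gap to the nearest of the others was above the 95% critical value of Dixon's test. Chance gives about 1 in 20 groups where values are normal and groups independent. Here the 25 genes share the same 10 libraries, so the groups are not independent. In 9 of the 13 the library was siUSP9X replicate 2.

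That library was high for 5 genes. It had 2113 CPM of SLC38A2 where the other 4 siUSP9X libraries had 916 to 1108 CPM. For SLC38A1 it had 1144 CPM against 395 to 479.9 CPM. SLC38A9 stood at 68.5 CPM in it against 35.4 to 43.7 CPM, SLC7A11 at 72.4 CPM against 23.7 to 30.5 CPM, and SLC7A2 at 11.9 CPM against 4.70 to 5.58 CPM. It was low for 4 genes. SLC7A5 stood at 439 CPM against 508 to 529 CPM, SLC3A2 at 109.8 CPM against 209.6 to 235 CPM, SLC38A10 at 46.1 CPM against 71.3 to 81.2 CPM, and SLC6A9 at 8.46 CPM against 15.0 to 16.4 CPM.

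Among siCtrl libraries, replicate 2 was low for SLC7A1 (104 CPM against 134 to 147 CPM) and for SLC7A6 (35.8 CPM against 45.2 to 47.9 CPM). Replicate 1 was low for SLC1A5 (108 CPM against 129 to 136 CPM), and replicate 3 was high for SLC7A7 (1.52 CPM against 0.324 to 0.567 CPM).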

How the results depend on the processing

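The 4 higher transporters became 2 with no filter on low counts, 7 with DESeq2, and 1 with the replicate number as a block or at an adjusted p under 0.01, and ranged from 1 to 8 when 1 library was left out. The 1 lower transporter became 0 with the block and 0 at the stricter threshold, and ranged from 1 to 2 with 1 library left out. DESeq2 size factors, upper-quartile factors, library totals and a 5 CPM filter kept the same 5 genes, and limma-voom added SLC7A7. Without siCtrl replicate 1, 3, 4 or 5 or siUSP9X replicate 3 or 5, SLC38A7 and SLC6A6 were the calls that remained of the 5. SLC3A2, at 0.0043 with all libraries, turned to -2.8e-05 with DESeq2 size factors, -0.0090 with upper-quartile factors, -0.016 with no filter, -0.0073 with DESeq2, -0.046 with limma-voom and -0.040 with the block, and ran from -0.057 to 0.16 with 1 library left out. With 1 library left out the log2 fold change ran from -0.030 to 0.47 for SLC38A1, -0.17 to 0.025 for SLC38A10, -0.093 to 0.20 for SLC36A4, -0.15 to 0.045 for SLC43A2 and -0.093 to 0.025 for SLC43A1. Of 446 values of single genes under the alternatives, 387 kept direction and side of the threshold, 27 lost the call, 11 gained it and 21 changed sign; the cause was not tested.

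The trafficking list's 3 higher genes became 5 with upper-quartile factors, 6 with library totals, 7 with DESeq2 and 1 with the 5 CPM filter. For other factors, filters, thresholds and methods the share of all tested genes called is not given here. The same holds for leaving out a library other than siUSP9X replicate 2. The transporter and trafficking counts in those settings therefore do not show a change particular to these genes. Same-numbered libraries of the groups had correlations of deviations from -0.42 to 0.23. These cannot decide whether the numbers pair the libraries, because siUSP9X deviations are taken from a mean that includes the outlying siUSP9X replicate 2. The labels do not say what a number shares. In 1 of 5 numbers the siCtrl library correlated best with its own number. The block kept SLC38A7 alone among the 5 and took the whole table from 570 higher and 449 lower genes to 34 and 57. The edgeR test with its filter did not cover the 34 transporters under the filter, of which 12 had 0 counts in all 10 libraries. The part of sequencing depth in their low counts was not tested.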
